A study of Mus musculus with 3 samples.

Results

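Trefoil factors and gastrokines are small proteins that mucus-secreting cells of the gut release together with mucins. They were followed here as 8 genes chosen by name: the trefoil factors Tff1, Tff2 and Tff3, the gastrokines Gkn1, Gkn2 and Gkn3, and 2 further genes of gastric epithelium, Anxa10 and Psca. All 8 were on the array design, among 27677 gene names, and each had 1 probe. Gkn2 is listed on the design as 1810036H07Rik and Gkn3 as 1190003M12Rik. All 8 were measured on the liver array (of 25606 genes) and on the stomach array (of 25322 genes), and 5 of the 8 appear in the authors' deposited lists for lung.

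Tumours that arose in AID Tg mice were set beside tissue without tumour; AID, activation-induced cytidine deaminase, is the enzyme that mutates antibody genes in B cells, and these mice carry it as a transgene. The series names 3 samples, each a 2-colour hybridisation with 1 tissue in the red dye Cy5 and the other in the green dye Cy3. In liver and in stomach, tumour and nontumour tissue came from the same AID transgenic mouse, so both carried the transgene, whereas the lung tumour of an AID Tg mouse was set beside the normal lung of a Wt (wild-type) animal and so differed from it in genotype as well. The sources used here do not state the promoter that drives the transgene, the age and sex of the mice, or whether animals were pooled.

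With 1 array for each organ, no replicate and no exchange of dyes, the differences lack any replicate check and carry no p-value, and precision is limited by the number of arrays. The dye of the tumour is also not settled: the sample labels put it in Cy3, but the authors' deposited lists place genes brighter in Cy5 under headings for genes up in the tumour, which makes Cy5 the likely tumour channel. All ratios are therefore printed as log2 of Cy5 over Cy3, by channel, and every sign would turn between tumour and nontumour if the dye labels hold. The error beside a ratio is the scanner software's error for that spot, on the log2 scale, and covers measurement only.

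A trefoil factor is built on a compact domain held by disulfide bonds and helps to seal damaged epithelium. In the mouse stomach, Tff1 is a product of surface mucous cells and Tff2 of mucous neck cells, and Tff2 also marks the metaplasia named after it (spasmolytic polypeptide-expressing metaplasia, SPEM). Tff3 is known above all from intestinal goblet cells. Gkn1 and Gkn2 come from surface mucous cells and carry a BRICHOS domain, and Gkn2 forms a disulfide-linked pair with Tff1. Gkn3 is made by mucous neck cells of the mouse. Anxa10 is an annexin, a calcium-dependent membrane-binding protein, and Psca is a small surface protein of the Ly6 family held by a lipid anchor.

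The 3 gastrokine genes lie side by side on chromosome 6. Promoters from RefSeq (build GRCm38.p6) were matched for Gkn1, Gkn2, Gkn3 and Anxa10. The 3 neighbours are shown because their measured stomach ratios differed, that of Gkn2 being a limit. Anxa10 is shown because it had the highest of the 5 lung ratios in the authors' deposited table. Each window holds 250 bases before the annotated start and 50 from it. Capitals mark the TATA motif TATAAA and the GATA motif AGATAA. Both were searched on both strands together with the forkhead motif TGTTTAC, and none of the 3 overlaps another in these windows.
Gkn1, chr6:87350866-87351165, minus strand: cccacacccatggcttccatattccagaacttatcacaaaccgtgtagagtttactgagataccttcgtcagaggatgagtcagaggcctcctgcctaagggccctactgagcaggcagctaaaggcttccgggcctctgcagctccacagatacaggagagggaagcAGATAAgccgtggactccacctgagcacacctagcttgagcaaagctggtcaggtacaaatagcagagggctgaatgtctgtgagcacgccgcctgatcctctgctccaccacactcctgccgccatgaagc
Gkn2, chr6:87373115-87373414, plus strand: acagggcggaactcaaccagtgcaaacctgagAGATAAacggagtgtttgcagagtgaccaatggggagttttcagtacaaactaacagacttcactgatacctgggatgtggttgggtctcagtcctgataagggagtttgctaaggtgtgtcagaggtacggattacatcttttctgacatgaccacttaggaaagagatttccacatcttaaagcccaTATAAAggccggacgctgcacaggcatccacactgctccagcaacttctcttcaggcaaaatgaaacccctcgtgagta
Gkn3, chr6:87388886-87389185, minus strand: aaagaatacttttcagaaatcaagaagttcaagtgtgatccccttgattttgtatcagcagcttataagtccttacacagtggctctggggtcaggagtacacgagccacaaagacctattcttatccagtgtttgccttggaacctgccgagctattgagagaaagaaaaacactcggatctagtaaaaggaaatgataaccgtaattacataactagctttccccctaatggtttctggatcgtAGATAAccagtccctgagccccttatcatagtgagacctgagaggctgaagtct
Anxa10, chr8:62123144-62123443, minus strand: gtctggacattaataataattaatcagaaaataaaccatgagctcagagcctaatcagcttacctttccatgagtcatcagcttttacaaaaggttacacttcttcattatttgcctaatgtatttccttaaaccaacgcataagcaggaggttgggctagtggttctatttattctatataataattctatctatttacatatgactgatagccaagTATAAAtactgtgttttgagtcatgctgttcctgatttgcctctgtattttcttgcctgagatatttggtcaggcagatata

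TATAAA begins 29 bases before the start of Gkn2 and 32 bases before that of Anxa10, and is not in the windows of Gkn1 and Gkn3. On the gene's strand, 45 to 11 bases before the start, 2.22% of 32544 promoters hold this motif, and 13.6% hold it anywhere in the window. AGATAA is in all 3 gastrokine windows, beginning 82 bases before the start of Gkn1, 218 before Gkn2 and 4 before Gkn3, and 11.2% of all windows hold it. TGTTTAC was in none of the 4 and in 3.66% of all windows. These matches are a description of letters in a window.

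The probes' positions in the scanner files, whose build the sources used here do not state, fall into the same clusters. Tff3 was read at chromosome 17, 29320548 to 29320607, Tff2 at 29337525 to 29338349 and Tff1 at 29356574 to 29356633, all on the minus strand. Gkn1 was read on chromosome 6 at 87420958 to 87421017, Gkn2 at 87454377 to 87454436 and Gkn3 at 87458467 to 87458526. Anxa10 was read on chromosome 8 at 60466931 to 60466990 and Psca on chromosome 15 at 74796999 to 74797058. The exon or untranslated region hit by each probe was not determined here.

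The arrays matched their labelled organs by defining markers. On the liver array albumin (Alb) was saturated in both channels, and Cps1, the first enzyme of the urea cycle, had raw signals of 28800 in Cy5 and 19700 in Cy3. On the stomach array the pepsinogen Pgc had 10900 in Cy5 and 60600 in Cy3, against 272 and 249 on the liver array. The gastric mucin Muc6 differed little, with 1480 and 890 on the stomach array and 1190 and 778 on the liver array. The pancreatic gene Clps was also bright on the stomach array, with 34300 in Cy5 and a saturated 65300 in Cy3. For scale, the 95th percentile of the negative control spots was 77.1 in Cy5 and 139 in Cy3 on the liver array, and 72.3 and 133 on the stomach array. The median gene spot had 152 in Cy5 and 180 in Cy3 on the liver array, and 163 and 171 on the stomach array.

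**Figure D1:**
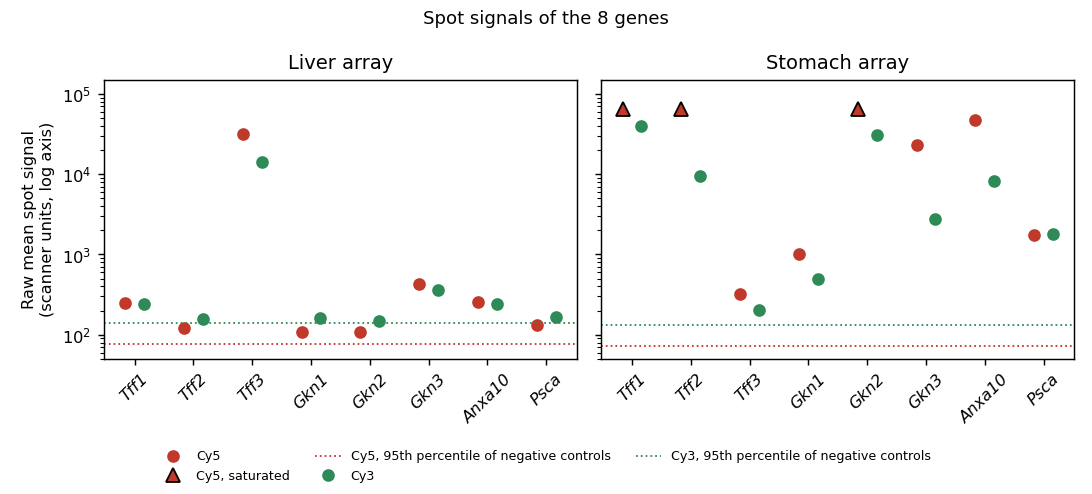
Raw mean spot signal (scanner units, log axis) of the 8 genes on the liver array (left) and the stomach array (right), with Cy5 in red left of Cy3 in green; triangles are saturated spots and dotted lines the 95th percentile of the negative control spots of each channel. Tff3 stands alone at the top of the liver panel, with 32000 in Cy5 and 14300 in Cy3, and Tff1, Tff2 and Gkn2 sit at the Cy5 ceiling of 65200 in the stomach panel.

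In the stomach, the 8 genes lay on both sides of 0 in the main normalization, while 7 of the 8 lay above 0 with median centring. Gkn3 and Tff2, the mucous neck cell products, were brighter in Cy5, and Anxa10 came close to 2-fold on the same side. Psca was brighter in Cy3, Tff1 and Gkn2 leaned to Cy3 with a saturated Cy5 spot, and Tff3 and Gkn1 were 1.36-fold and 1.15-fold brighter in Cy5. By measured value, 2 of the 8 (Gkn3 and Tff2) passed 2-fold on the Cy5 side, against 0.873% of all genes measured on this array, and 2 of the 8 (Psca and Tff1) passed it on the Cy3 side, against 1.41%. The median ratio of the 8 was 0.32, against 0.0012 over all genes. With median centring, 3 of the 8 passed 2-fold on the Cy5 side and 0 on the Cy3 side, and the median of the 8 was 0.73. Both medians of the 8 use the measured ratios of Tff1, Tff2 and Gkn2, whose Cy5 spots were saturated, so they are lower limits. Over all genes, 579 passed 2-fold and 38.2% of them were brighter in Cy5, while with median centring 1252 passed and 81.2% were brighter in Cy5. In bulk tissue, fewer cells of a type and less RNA per cell cannot be told apart.

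Tff2 had a raw signal of 65200 in Cy5, the ceiling of the scanner, and 9370 in Cy3. Its log2 ratio was 1.17 (scanner error 0.19). Because the brighter spot was saturated, Tff2 was at least 2.24-fold brighter in Cy5.

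Tff1 also reached 65200 in Cy5, with 39800 in Cy3. After normalization its ratio was -1.05 (error 0.18), 2.07-fold brighter in Cy3. Since the saturated spot is the one that came out dimmer, the fold on the Cy3 side is an upper limit and the log2 ratio a lower limit. A brighter true Cy5 signal would bring the ratio towards 0 or past it. Only 7 of the 41534 gene spots were brighter than Tff1, and at that brightness the loess curve, which removes the dye bias that grows with brightness, took off 1.34 log2 units. With the array centred on its median and no curve, Tff1 stood at 0.29, on the Cy5 side, and it fell short of 2-fold with an offset of 10 (-0.93) and by the scanner software's ratio (-0.90).

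Tff3 was dim in the stomach, with raw signals of 324 in Cy5 and 205 in Cy3. Its ratio was 0.44 (error 0.35). Both values stood above the 95th percentile of the negative controls of their channel.

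Gkn1 had a raw signal of 1000 in Cy5 and 495 in Cy3 in the stomach, and a ratio of 0.20 (error 0.18). Gkn2, its neighbour on chromosome 6 and the partner of Tff1, was saturated in Cy5 at 65200 and had 31100 in Cy3. Its log2 ratio of -0.67 (error 0.17) is a lower limit of the same kind as for Tff1, and it was 0.64 without the curve. The measured direction of Tff1 and Gkn2 thus rests on the removal of a dye curve. The scanner software's own ratio kept both on the Cy3 side, at -0.90 and -0.53. That ratio is curve-based too and uses the same saturated spots, so it is not a separate check.

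Gkn3 had the largest stomach ratio among the 5 genes with no saturated spot. Its raw signal was 23300 in Cy5 and 2760 in Cy3, with neither spot saturated, and the log2 ratio was 1.66 (error 0.21), or 3.16-fold brighter in Cy5. Of the 3 neighbouring gastrokines, Gkn3 was the one past 2-fold by measured value, and the ratio of Gkn2 is a limit.

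Anxa10 had a raw signal of 47300 in Cy5 and 8270 in Cy3. Its ratio was 0.92 (error 0.18), or 1.89-fold brighter in Cy5, just inside the 2-fold line, and its log2 ratio was 1.01 by the scanner software and 2.10 with median centring, both past 2-fold. Psca had nearly equal raw signals, 1730 in Cy5 and 1800 in Cy3. At its brightness the curve removed 0.75, giving -1.20 (error 0.19), or 2.30-fold brighter in Cy3. With median centring alone Psca had -0.45, on the same side.

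**Figure D2:**
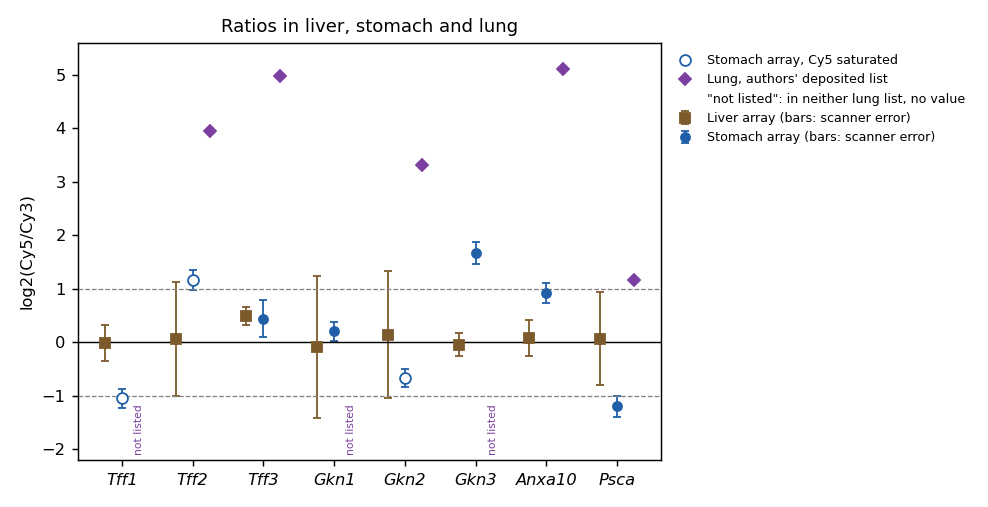
log2(Cy5/Cy3) of the 8 genes for the liver array (squares), the stomach array (circles, open where Cy5 was saturated) and the authors' deposited lung lists (diamonds); bars are the scanner error of 1 spot and dashed lines mark 2-fold. Liver points lie between -0.10 and 0.49, stomach points between -1.20 and 1.66, and the 5 listed lung values between 1.16 and 5.12; 3 genes are in neither lung list and have no value.

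Of these 8 genes, the authors' deposited stomach lists hold Gkn3 (log2 1.72) and Anxa10 (1.01) in the list headed up, with 4% of gene spots, and Psca (-1.25) in the list headed down, with 3.33%. Tff1, Tff2 and Gkn2 are in neither, although each had a p-value of the scanner software under 0.01, as did 3041 of the listed stomach spots. On the stomach array 20 saturated gene spots passed that threshold, and 0 of the 20 were listed; on the liver array 0 of 18 were. Of the 21 gene spots saturated in Cy5 on the stomach array, 3 were Tff1, Tff2 and Gkn2.

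The stomach ratios depended on how the dye bias was removed. The 2 loess fits and the scanner software's ratio lay within 0.21 log2 units of each other for each of the 8 genes, while median centring moved all 8 towards Cy5, by 0.26 for Tff3 and by 1.34 for Tff1. Among the 5 genes with no saturated spot, Gkn3 was the highest in all 4, followed by Anxa10, and Psca was the lowest in all 4. Tff1, Tff2 and Gkn2 have no place in that order, since their ratios are limits.

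**Figure D3:**
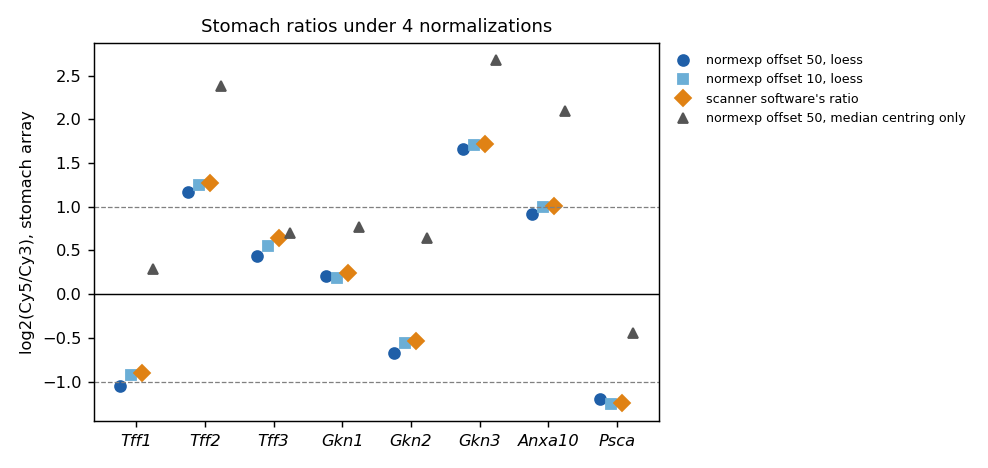
log2(Cy5/Cy3) of the 8 genes on the stomach array under normexp background correction with an offset of 50 or of 10 and a loess curve, under the scanner software's own ratio, and under median centring without a curve. Tff1 and Gkn2 change sides with median centring, to 0.29 and 0.64, and the other genes keep theirs.

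Other genes of the same cell types were taken as lists, whose counts depended on the loess curve as those of the 8 genes did. Of 14 measured genes of mucous neck cells and SPEM (Gkn3 and Tff2 not counted), 5 passed 2-fold on the Cy5 side and none on the Cy3 side, with a median ratio of 0.80; over all genes 2.29% passed 2-fold in either direction. With median centring 10 passed, all on the Cy5 side, and the median was 1.30. They were led by Dmbt1 (2.38), a secreted mucosal scavenger protein, Clu (1.77), clusterin, the chloride channel Cftr (1.60, SD 1.62 between 2 probes) and Mal2 (1.22), a protein of apical transport. Muc6, the mucin of mucous neck and deep gland cells, had -0.27 and was named for its role after its value was seen.

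Among 13 surface mucous cell genes, the neighbours of Tff1, Gkn1 and Gkn2 by cell type, 1 was at least 2-fold brighter in Cy5 and the median was 0.33, while with median centring 7 passed and the median was 1.08. The 1 gene was Krt20 (2.41), a keratin of surface cells in stomach and intestine. Next came the water channel Aqp5 (0.96), carbonic anhydrase Car2 (0.74) and Ptgr1 (0.56), an enzyme that inactivates prostaglandins and leukotrienes.

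Goblet cell genes, the usual company of Tff3, had 3 of 12 measured members past 2-fold on the Cy5 side, Tff3 itself not counted, and a median of 0.19; with median centring 6 passed and the median was 0.95. The 3 were Clca1 (3.54), a secreted goblet cell protein whose Cy5 spot was saturated, the membrane mucin Muc4 (1.25, SD 0.95 between 5 probes) and Agr2 (1.06), a disulfide isomerase needed for mucin folding. Muc2, the main intestinal mucin, had raw signals of 131 in Cy5 and 152 in Cy3 and a ratio of 0.07, and was likewise named for its role.

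Among 14 measured genes proposed as receptors, partners or signalling partners of trefoil factors, 1 passed 2-fold on the stomach array, Dmbt1, a reported binding partner of Tff2. The chemokine receptors Cxcr4 and Ackr3, proposed as receptors of trefoil peptides, had 0.04 and 0.17, and were chosen for that role after their values were seen. Of 5 measured genes with a BRICHOS domain, the domain of the gastrokines, none passed 2-fold and the median was -0.15. Regulators of gastric and gut epithelium had 0 of 19 past 2-fold and a median of 0.07, with Shh (0.86), a signalling protein made in gastric glands, Barx1 (-0.76), a factor of stomach mesenchyme, the epithelial factor Elf3 (0.72) and Foxa1 (0.67) furthest from 0. That count of 0 did not hold throughout: 2 passed with an offset of 10, 3 by the scanner software's ratio (median 0.36) and 3 with median centring (median 0.34).

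Relatives of Anxa10 and Psca were counted in the same way. Of 13 relatives and partners of Anxa10, 2 were at least 2-fold brighter in Cy5 in the stomach: S100a10 (1.66) and Anxa2 (1.04), which form a complex on membranes. The list's median was 0.49, and with median centring 7 passed and the median was 1.02. Of 27 Ly6 family genes related to Psca, 1 passed 2-fold, Lypd3 (-2.85), a protein of stratified epithelium, which was brighter in Cy3, and the median was 0.03. With median centring 5 passed, 4 of them on the Cy5 side, and the median was 0.37.

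Lists for parietal and chief cells, forestomach, smooth muscle and cell cycle had medians further from 0 than the measured median of the 8 genes in the main normalization. Parietal and chief cell genes had 10 of 15 members at least 2-fold brighter in Cy3 (median -1.51). Squamous epithelium of the forestomach had 12 of 16 (median -1.84) and smooth muscle 5 of 10 (median -1.26), against 1.41% of all genes. On the Cy5 side 1 squamous gene passed, Ivl (1.16). Cell cycle genes had 7 of 12 at least 2-fold brighter in Cy5 (median 1.04), against 0.873% of all genes. With median centring these counts were 9, 10, 4 and 9. The medians were then -1.48, -1.40, -0.74 and 1.41, against a measured 0.73 for the 8 genes, which is a lower limit. The pancreatic genes Clps (-2.68, with a saturated spot) and Pnliprp2 (-3.74) were brighter in Cy3 too. The part of tissue composition in the ratios of the 8 genes was not tested.

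**Figure D4:**
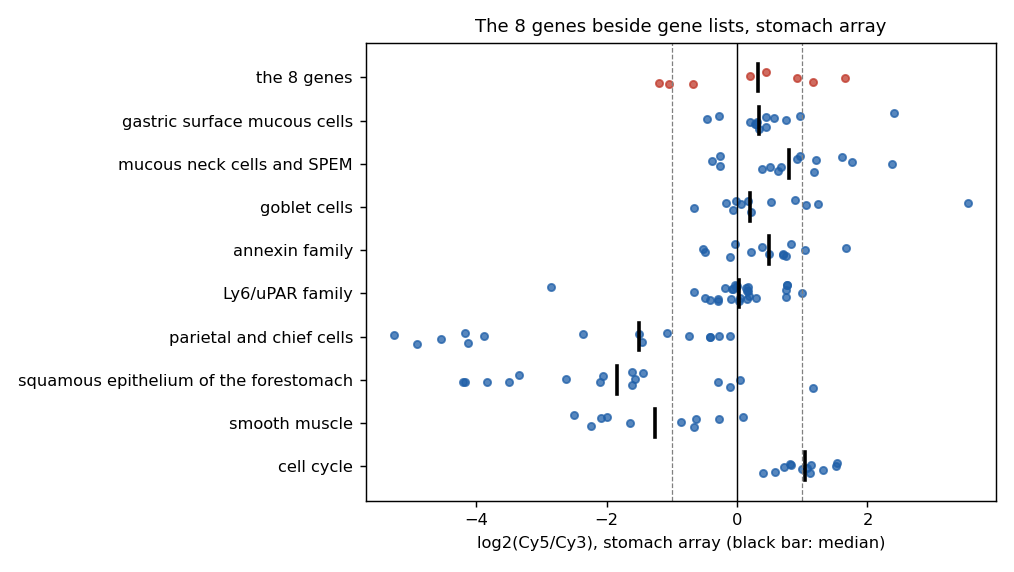
log2(Cy5/Cy3) on the stomach array for the 8 genes (red, top) and for the measured members of 9 gene lists (blue), with the median of each as a black bar and dashed lines at 2-fold. By measured value the 8 genes spread from -1.20 to 1.66 around a median of 0.32, which is a lower limit because of saturated Cy5 spots. Mucous neck cell genes centre on 0.80, and parietal, squamous and smooth muscle genes lie mostly on the Cy3 side.

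In the liver, none of the 8 genes reached 2-fold in either direction, against 0.223% of all genes measured there (0.152% brighter in Cy5 and 0.0703% brighter in Cy3). The median of the 8 was 0.06, against 0.01 over all genes. Tff3 was the exception in level, and it was the one gene of the 8 in the authors' deposited liver lists.

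Tff3 had a raw signal of 32000 in Cy5 and 14300 in Cy3 on the liver array, and 102 of the 41534 gene spots were brighter. Its ratio was 0.49 (error 0.17), or 1.41-fold brighter in Cy5, and the authors' deposited table gives 0.53 in the list headed up, which holds 1.25% of gene spots. The ratio was positive in all 4 normalizations and 0.90 with median centring.

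Tff2, Gkn1, Gkn2 and Psca gave little signal in either liver channel. Tff2 had 121 in Cy5 and 159 in Cy3, Gkn1 had 109 and 161, Gkn2 107 and 147, and Psca 134 and 166. The scanner software flagged all as well above background, yet the Cy3 values of 147 to 166 lay close to the 139 of the 95th percentile of the negative controls. Their ratios ran from -0.10 to 0.14 with errors of 0.87 to 1.33, so a 2-fold difference would lie close to or within the scanner error.

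Tff1 had 246 in Cy5 and 244 in Cy3 in liver (ratio -0.02, error 0.34), and Anxa10 255 and 239 (0.08, error 0.34). Gkn3 had 424 and 363 (-0.04, error 0.22). These 3 were measured more firmly and were even between the channels.

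Some relatives of Psca and Anxa10 passed 2-fold in liver. Ly6d, a relative of Psca, had 3.33 (error 0.32), and Anxa13, an annexin of intestinal epithelium, 1.20 (SD 0.79 between 2 probes). In all, 3 of 26 Ly6 family genes were at least 2-fold brighter in Cy5, the others being Lypd8 (1.37, SD 0.97 between 2 probes) and Ly6a (1.22), and Anxa13 was the one such gene among 13 of the annexin list. Neck cell, surface cell and goblet cell genes had none past 2-fold in liver, with medians of 0.03, 0.16 and -0.05.

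Between the arrays, the same probe can be set against itself once the brightness of the arrays is brought to 1 scale. Of the 8 genes, 7 were brighter on the stomach array in both channels, and Tff3 was brighter on the liver array in both. The offset of the background correction lowers folds over dim signals, and the Cy5 folds of a saturated spot are lower limits. Both channels also carry the loess curve, which lowered bright Cy5 signals and raised bright Cy3 signals on the stomach array. It removed 1.34 log2 units from the ratio of Tff1 there, 1.31 from Gkn2 and 1.21 from Tff2. Their Cy3 folds are therefore raised by the curve, and they depend on the capped Cy5 spot through the mean brightness.

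Gkn2 was at least 482-fold brighter on the stomach array in Cy5 and 848-fold in Cy3. Tff2 was at least 453-fold brighter there in Cy5 and 210-fold in Cy3, and Tff1 at least 197-fold in Cy5 and 402-fold in Cy3. Anxa10 followed with 156-fold in Cy5 and 87.0-fold in Cy3. The raw signals of Gkn2 were 65200 in Cy5 and 31100 in Cy3 on the stomach array, against 107 and 147 on the liver array. Those of Tff1 were 65200 and 39800, against 246 and 244. By raw signal the rise of Gkn2 and Tff1 was larger in Cy5, so their larger Cy3 folds depend on the normalization.

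Gkn3 was 47.0-fold brighter on the stomach array in Cy5 and 14.4-fold in Cy3, Psca 11.2-fold and 26.8-fold, and Gkn1 7.89-fold and 6.41-fold. Tff3 was 89.9-fold brighter on the liver array in Cy5 and 86.7-fold in Cy3. Over 24766 genes measured on both arrays, 1.62% were more than 4-fold brighter on the stomach array in Cy5 and 1.53% in Cy3, and 2.08% were more than 4-fold brighter on the liver array in Cy5 and 1.99% in Cy3.

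**Figure D5:**
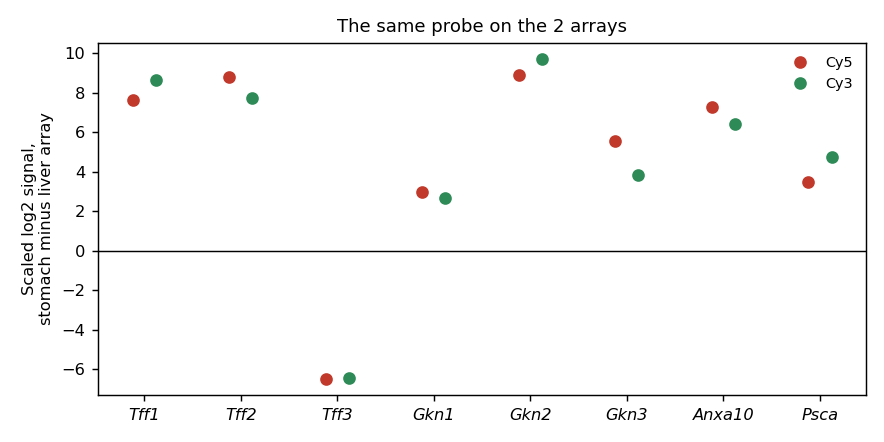
Difference in scaled log2 signal of the same probe after the loess curve, stomach minus liver array, for each of the 8 genes in Cy5 (red) and Cy3 (green). All genes but Tff3 lie above 0, between 2.68 and 9.73, and Tff3 lies at -6.49 in Cy5 and -6.44 in Cy3; the Cy5 values of Tff1, Tff2 and Gkn2 are lower limits because the stomach spot was saturated.

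The genes nearest to each of the 8 were found by the Euclidean distance over 4 channel signals (Cy5 and Cy3 on both arrays), each gene centred on its own mean, so that the measure follows the pattern and not the level. The distances of Tff1, Tff2 and Gkn2 rest on a stomach Cy5 signal capped at the scanner's ceiling, so their values and ranks hold for the measured signals only. With that limit, Tff2 was closest to 2210407C18Rik (distance 0.23 log2 units) and Krt19 (0.41), a keratin of simple epithelium, then Agr2 (0.93). Tff3 was closest to Fabp1 (0.25), the fatty acid binding protein of liver and intestine. Anxa10 was closest to Ctse (0.23), the aspartic protease cathepsin E of gastric surface cells, and to S100a6 (0.27).

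Gkn3 was closest to Cwh43 (0.17) and had Vil1 (0.31), a brush border protein, among its 3 nearest. Psca was closest to Pitx1 (0.25), a homeobox factor, and Gkn1 to Mid1ip1 (0.11). By their capped signals, Tff1 and Gkn2 had no gene within 1 log2 unit and lay 1.22 from each other. Clps, whose own stomach Cy3 spot was saturated, lay 1.19 from Tff1, and the order of these distances is not settled. With 4 values a gene, many genes can lie close to a plain pattern, and 223 lay within 1 unit of Gkn1. The neighbours also depend on the measure: by correlation, Gkn1 kept 1 of its 3 nearest, Mid1ip1, and the other genes kept none.

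Among the 3 genes on each side of either cluster, none of those measured passed 2-fold in the stomach. Beside Tff3, Abcg1, a cholesterol exporter, had -0.75 (error 0.34) in the stomach, and beside Tff1, the protease Tmprss3 had 0.02 (error 0.24). At the gastrokine cluster, Antxr1, an anthrax toxin receptor, had -0.38 (error 0.34) and Bmp10, a heart growth factor, 0.18 (error 2.05). Of the flanking genes, 6 are listed for lung in the authors' deposited table: Abcg1 (-1.29), Tmprss3 (1.21) and Rsph1 (-2.62) at the trefoil cluster, and Gfpt1 (1.95), Antxr1 (-2.56) and Arhgap25 (-3.08) at the gastrokine cluster.

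In the lung, 5 of the 8 genes were in the authors' deposited list headed up, whose spots are brighter in Cy5 and make up 5.51% of gene spots, and none was in the list headed down, which holds 9.78%. The 5 were Anxa10, Tff3, Tff2, Gkn2 and Psca. Lung values come from the authors' deposited table only, which was joined to the design by spot number and starts at 2-fold.

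Anxa10 had a log2 ratio of 5.12 in lung in the authors' deposited table, or 34.7-fold brighter in Cy5, with deposited signals of 55500 in Cy5 and 1600 in Cy3. It ranked 22nd of 2288 spots by ratio. Tff3 ranked 28th in the authors' deposited table, with 4.98 (31.6-fold) and signals of 61200 in Cy5 and 1960 in Cy3. For Tff2 the authors' deposited table gives 3.95 (15.5-fold), with 228000 in Cy5 and 14800 in Cy3, at rank 88.

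Gkn2 had 3.31 (9.93-fold) in the authors' deposited table, from dim signals of 1820 in Cy5 and 183 in Cy3. Psca came in much lower in the authors' deposited table, at 1.16 (2.23-fold), with 784 in Cy5 and 352 in Cy3 and rank 1848. Tff1, Gkn1 and Gkn3 were in neither lung list and so have no lung value here. Whether their lung spots were dim, saturated or under 2-fold was not determined.

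Side by side, the organs gave these values, from separate normalizations. Tff2 and Anxa10 leaned to Cy5 in both stomach and lung, and Tff3 had positive ratios in all 3 organs with its large ratio in lung. Gkn3 was at least 2-fold brighter in Cy5 in the stomach and, being in neither lung list, has no lung value to compare. Gkn2 leaned to Cy3 in the stomach, with a saturated Cy5 spot, and was Cy5-high in the lung table. Psca was at least 2-fold in opposite directions in stomach and lung.

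Genes of the same cell types were also in the lung table. Over all gene spots, 5.51% are in the list headed up and 9.78% in the list headed down. The counts that follow are of genes, for which 1 listed probe was enough, so they are not like for like with these shares of spots. No count was tested against them. Of 20 regulators of gastric and gut epithelium, the authors' deposited table has 6 in the list headed up and 2 in the list headed down. Among them in the authors' deposited table were Sox2 (-3.99), a factor of foregut and airway, Elf3 (2.94) and Foxa2 (-2.56), a forkhead factor of endoderm. Of 13 surface mucous cell genes, the authors' deposited table has 5 in the list headed up, with Sult1c2 (3.99), a sulfotransferase, Car2 (3.42) and Vsig1 (3.32), a junction protein of gastric epithelium, and 1 headed down, Aqp5 (-3.23), a water channel that alveolar cells also make.

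Of 13 goblet cell genes, 5 were in the lung list headed up in the authors' deposited table, among them Agr2 (3.22) and Clca1 (1.80), and Klf4 (-1.23) was in the list headed down. Of 15 mucous neck cell genes, the authors' deposited table has 5 headed up and 2 headed down, among them Sox9 (3.36 and 2.12 on 2 probes) and Lyz2 (-3.10), the lysozyme of macrophages and alveolar cells. Of 27 Ly6 family genes, the table lists 12 up and 3 down, among them Lypd8 (5.75 and 4.38 on 2 probes in the authors' deposited table), a surface protein of colon epithelium, Lypd3 (3.92) and Ly6d (3.75). Of 13 annexin genes, the table lists 6 up and 1 down, among them Anxa13 (4.25 and 2.76 on 2 probes in the authors' deposited table) and Anxa6 (-2.73 and -2.13).

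Of 12 lung epithelium markers in the same table, 9 were in the list headed down and none in the list headed up, with Cyp2f2 (-5.15 in the authors' deposited table), an airway cytochrome P450, Sftpa1 (-4.45 and -4.12 on 2 probes), a surfactant protein, and Ager (-3.95), a receptor of flat alveolar cells. Of 15 proposed receptors and partners of trefoil factors the table lists 3 up and 6 down, among them Cxcr4 (-1.91 in the authors' deposited table). Among 12 cell cycle genes the table lists 4 up, and 5 of 10 smooth muscle genes are headed down. Of 15 parietal and chief cell genes it lists 0 up and 5 down, among them Kcne2 (-2.59 in the authors' deposited table). Of 16 genes of squamous forestomach it lists 5 up and 2 down, among them Ivl (4.09 in the authors' deposited table) and Spink5 (-3.62). Of 7 further BRICHOS genes it lists 0 up and 1 down, Itm2a (-1.99 in the authors' deposited table). Of 11 hepatocyte genes it lists 3 up, among them Apob (1.74 and 1.70 on 2 probes in the authors' deposited table) and Alb (1.55), and 1 down, Trf (-1.06). The part of cell composition in the lung ratios was not tested, and tumour and genotype cannot be told apart there.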

How the data were processed

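RNA of 3 tissue pairs was read on 2-colour Agilent mouse arrays with Agilent Feature Extraction 8.5.1.1, per the submitters' processing notes and the file headers. Scanner values were used for liver and stomach; lung scanner values were not analysed here. The deposited intensity columns hold mean spot and median local background brightness, and processed intensities corrected by the scanner software for background and dye, per the file headers. The deposited log10 ratio is red (Cy5) over green (Cy3) processed signal, with an error and a p-value from the software's model of 1 spot, per the file headers. The authors' deposited gene table stacks 6 lists of such log10 ratios; its liver and stomach ratios and signals equal the scanner files' ratios and processed signals. No source used here states the build of the probes' coordinates.

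From the scanner files, limma 3.58.1 (R 4.3.3) corrected background with normexp (offset 50) and fitted a loess curve within each array; control spots had weight 0. Outlier spots, spots saturated in both channels and probes not well above background in either channel were left out, and a gene is the mean of its probes. Between arrays, brightness was scaled by Aquantile. The normalization was tested on simulated data. Names follow RefSeq GRCm38.p6: of 41174 probes, 79.4% were matched by accession, symbol or synonym. Tables were joined in pandas 2.3.3 (numpy 2.4.6, Python 3.11.15). With 1 array per organ there was no test, and genes were counted at 2-fold. The named genes are all 8, the 3 nearest to each, up to 3 flanking genes each way, and up to 4 of the largest ratios in each list. The members and lists were chosen with earlier results of these data known.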

Additional observations from a re-analysis of the deposited data

Results flagged for a closer look

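Psca was at least 2-fold in opposite directions in 2 organs, with -1.20 on the stomach array and 1.16 in the authors' deposited lung table, a difference of 2.36 log2 units for lung minus stomach. The difference was not tested, the 2 values come from separate normalizations, and the stomach value was -0.45 with median centring.

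A second probe outside the 8 genes' own names carries a trefoil label. The clone AK050258, whose description names its product as trefoil factor 1, is read on chromosome 17 at 29357841 to 29357900 on the plus strand, beside the Tff1 probe, which reads the minus strand. In the authors' deposited lung table it has a log2 ratio of 2.30 (4.92-fold brighter in Cy5), from signals of 701 in Cy5 and 142 in Cy3. The Tff1 probe itself is in neither lung list, so the 2 probes cannot be compared there. On the stomach array, where Tff1 was saturated in Cy5, this probe had raw signals of 108 in Cy5 and 127 in Cy3 and was not well above background in Cy3.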

How the results depend on the processing

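The stomach count of 4 genes past 2-fold was 1 at a 3-fold threshold and 2 when spots saturated in either channel were left out, an alternative chosen after seeing the data; it was 3 to 6 under the other settings. Tff1, at -1.05 in the stomach, was 0.29 with median centring; Gkn2, at -0.67 and short of 2-fold, was 0.64 there. Tff2, Gkn3 and Psca kept their sign under all 7 other ways of computing the ratio. The liver count was 0 under every setting run. Over all genes, the stomach count of 579 (38.2% Cy5-high) was 1028 (42.9%) with an offset of 10, 2142 (51.0%) by the scanner software's ratio and 1252 (81.2%) with median centring; the liver count of 57 (68.4%) was 217 (52.1%), 961 (56.3%) and 117 (94.0%). Ranking by correlation in place of distance kept 1 of the 3 nearest genes for Gkn1 and none for the other genes. The alternative naming of lung spots was not run, since the deposited table carries no names. No paired analysis was possible because each organ has 1 array with no replicate number. Dim liver signals and saturated stomach signals limit what the arrays show.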
